A study of Mus musculus with 15 samples.

Results

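This comparison asked how far late passage changed 2 kinds of cardiac colony culture in different ways. It is the passage change of PDGF-AB-treated small colonies (passage 15 minus passage 5) minus the passage change of untreated large colonies, and it rests on 12 of the 15 arrays of the study. It was computed for 19938 genes. Genes were then sorted by whether they changed in opposite directions, mostly in 1 kind of culture, or in the same direction by different amounts. Of the 19938 genes, 6865 passed the test for the difference, 937 changed in opposite directions and 388 changed at least 2-fold in 1 kind of culture while they stayed under 0.32 on the log2 scale in the other. These classes overlap, with 31 of the 388 also among the 937.

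The cells were cardiac colony-forming unit fibroblasts (cCFU-F), cultured from hearts of male C57BL/6 mice aged 12 weeks and sorted as positive for SCA1 and PDGFRα and negative for CD31. The 4 groups of the comparison, with 3 arrays each, were untreated large colonies at passage 5, untreated large colonies at passage 15, small colonies given 50 ng/ml PDGF-AB at passage 5, and small colonies given 50 ng/ml PDGF-AB at passage 15. A further group of 3 arrays, untreated small colonies at passage 5, entered the shared estimate of the spread and served as another starting point for the small colonies. From that start the late treated small colonies differ in both passage and PDGF-AB, so these cannot be told apart there. Untreated small colonies at passage 15 and treated large colonies were not analysed here. Colony size and PDGF-AB cannot be told apart in any difference between large and treated small colonies given here. The labels do not say whether the late cells were grown on from the early ones, nor whether replicate arrays stand for separate cultures or animals. The p-values therefore rest on a spread between arrays that may be technical.

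As background, cCFU-F are cardiac stromal cells that grow into colonies when plated sparsely. Colonies of different size are known to differ in how long they keep growing. PDGF-AB is a dimer of a PDGF A and a PDGF B chain and binds the receptor tyrosine kinases PDGFRα and PDGFRβ, which signal through the RAS to ERK cascade and through PI3 kinase. Receptors of this kind are known to switch on immediate early genes within minutes to hours, and feedback genes that damp the cascade. Serial passage of fibroblasts is known to select fast-growing cells and to alter matrix, contractile and inflammatory genes.

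Values are log2 intensities as deposited, so a difference of 1 is a doubling of intensity. A probe set's level cannot be set exactly against that of another gene. Levels set below against the median, the lower quartiles or the Y-linked genes are therefore only a rough guide. Differences are given with the SE of the limma fit over all 15 arrays, and adjusted p-values are Benjamini-Hochberg values over 19938 genes, with a threshold of 0.05. A gene is called when it passed that threshold. Array medians lay between 5.59 and 5.72, the lower quartiles between 4.06 and 4.23, and the median of all tested genes together was 6.00. Pearson's r across genes was 0.997 to 0.998 within groups and 0.958 to 0.991 between groups. In cells labelled male, the X-inactivation RNA Xist read 8.93 to 10.88 and 4 Y-linked genes read 2.24 to 3.42. That mismatch with the label holds for every array. No fold is given where a group read no higher than the Y-linked genes.

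By that rough guide, marker levels were those of fibroblasts at both passages. All 12 fibroblast markers lay above the median level of all genes by their mean over the arrays, and their mean per array was 9.26 to 10.04. Tcf21, however, was low in large colonies at both passages and in late treated small colonies. In the difference 7 of the 12 were lower and 2 higher, with a median of -0.79. Of the 12 endothelial markers 1 lay above that median, with array means between 4.67 and 5.05, and Pecam1, which encodes CD31, lay between 4.18 and 4.66. Ptprc, the pan-leukocyte gene, lay between 3.68 and 4.18, at or below the lower quartiles of the arrays. Array means were 4.83 to 5.11 for 14 leukocyte markers and 5.14 to 5.38 for 12 cardiomyocyte markers. The endothelial list was higher in the difference for 7 of 12 members and lower for 0, with a median of 0.32. Its counts became 3 and 0 with arrays centred on their medians and 1 and 0 after cyclic loess. Pecam1 itself had a difference of 0.30 ± 0.10 (adjusted p = 0.0336 in limma). That call was lost when single arrays of either kind of culture were left out (0.24 without early large replicate 2, 0.25 and 0.29 without late large replicates 1 and 2, 0.27 and 0.30 without early treated small replicates 1 and 2, and 0.26 and 0.28 without late treated small replicates 1 and 3).

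limma called 9169 genes for passage in treated small colonies (46% of 19938), 4910 up (24.6%) and 4259 down (21.4%), and 7196 in large colonies (36.1%), 3477 up (17.4%) and 3719 down (18.7%). Of these 1049 and 751 changed by at least 2-fold. Across the 19938 genes, which are not independent replicates, the 2 passage changes had a Pearson's r of 0.499. The difference itself was called for 6865 genes (34.4%), 3699 higher in small colonies (18.6%) and 3166 lower (15.9%), and 844 of them (4.23%) differed by at least 2-fold. At that size the balance was the other way, with 281 higher (1.41%) and 563 lower (2.82%). Of the 6865 genes, 2406 were called for passage in both kinds of culture, 2696 in treated small colonies alone, 1419 in large colonies alone and 344 in neither.

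The excess of higher calls lay among dim genes. Among the 9969 brighter genes (mean level at least the median), 19.6% were called higher and 26.7% lower, with a median difference of -0.029. Among the 9969 below it, 17.5% were called higher and 5.09% lower, with a median of 0.133. Higher calls made up 53.9% of all calls as deposited, 39.0% with arrays centred on their medians, 44.5% after cyclic loess and 42.9% with the dim genes left out. The median difference over all genes was 0.073, and 0.003 and 0.002 after centring and loess, so small differences are best read against that shift. The distance between the kinds of culture widened with passage. Genes that lay at least 2-fold apart numbered 726 at passage 5 and 925 at passage 15, and the median absolute gap was 0.133 and 0.214.

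**Figure D1:**
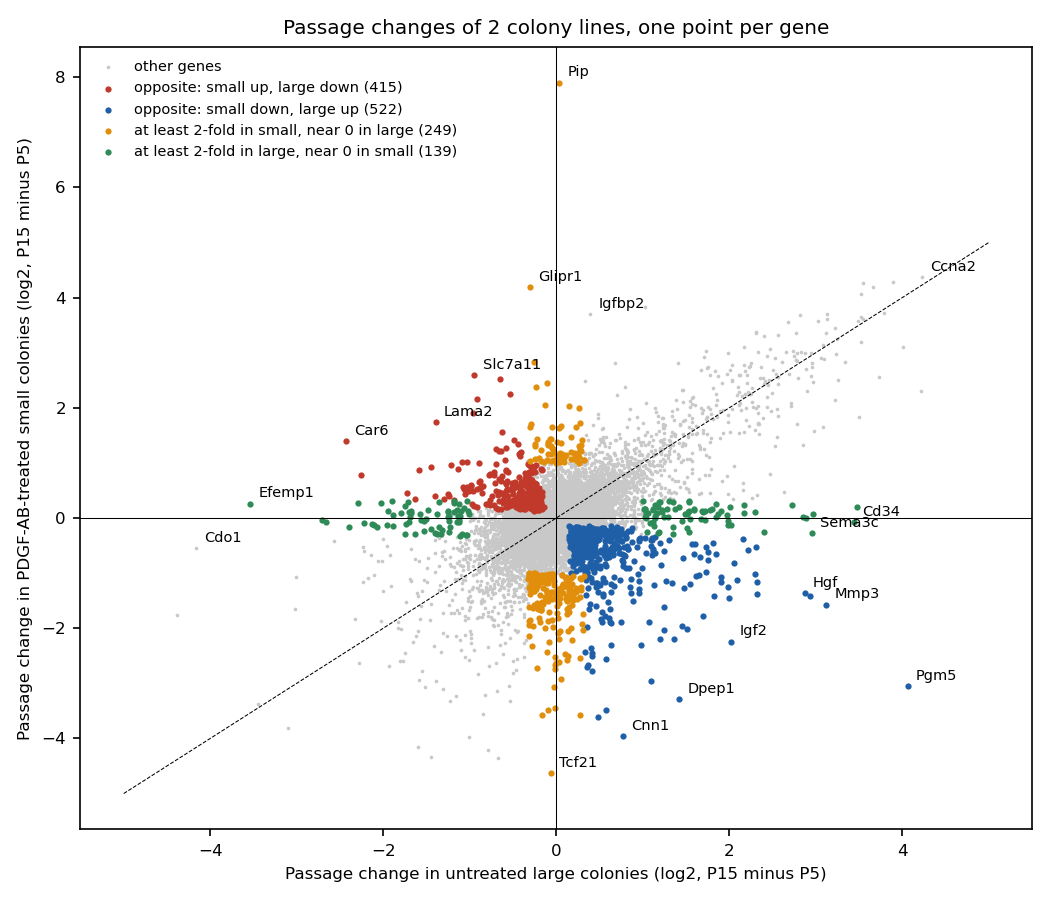
Each point is 1 of 19938 genes, with its passage change in untreated large colonies on the horizontal axis and in PDGF-AB-treated small colonies on the vertical axis, both as log2 passage 15 minus passage 5. Genes with opposite changes (415 red, 522 blue) fill the upper left and lower right, genes that changed mostly in small colonies (249, orange) lie along the vertical axis, genes that changed mostly in large colonies (139, green) lie along the horizontal axis, with the 31 that are also opposite drawn in orange or green, and genes near the dashed diagonal changed alike.

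Opposite passage changes were called for 937 genes (4.7%). In 415 (2.08%) the level rose in treated small colonies and fell in large ones, and in 522 (2.62%) it fell in treated small colonies and rose in large ones. In 878 of the 937, all already called in both passage changes, the 3 arrays of passage 15 lay entirely above or below those of passage 5 in both kinds of culture. The genes named below for the largest opposite changes were picked from these 878, so their separation was fixed by the rule. Large opposite changes ran mostly 1 way. Both changes reached 1.5-fold in 33 genes that rose in small colonies (0.166%) and 83 that fell there (0.416%), and 2-fold in 4 (0.0201%) and 31 (0.155%).

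Pgm5, which encodes a phosphoglucomutase-like protein of adherens junctions and focal adhesions, had the most negative difference of all named genes. It read 4.99, 4.99 and 5.05 in large colonies at passage 5 and 9.08, 9.10 and 9.04 at passage 15. In treated small colonies it read 8.11, 8.07 and 8.06 at passage 5 and 4.80, 5.17 and 5.12 at passage 15. The late level of each kind of culture was thus close to the early level of the other or above it. No early and late arrays overlapped within a kind of culture, as the naming rule required. Pgm5 rose 16.7-fold in large colonies and fell 8.29-fold in small ones, a difference of -7.11 ± 0.11 (adjusted p = 1.9e-16 in limma).

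Dpep1, a membrane dipeptidase that cleaves leukotrienes and cysteinyl-glycine, followed the same pattern. Its arrays were 5.55, 5.6 and 5.6 in early and 7.11, 6.97 and 6.93 in late large colonies. They were 8.79, 8.77 and 8.77 in early and 5.44, 5.33 and 5.71 in late treated small colonies. Early and late arrays stood apart in both, as the naming rule required, and the order of the 2 kinds of culture was turned around between passages. The difference was -4.70 ± 0.11 (adjusted p = 3.2e-14 in limma).

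Igf2, the imprinted fetal growth factor, rose from 9.03, 9.18 and 8.93 to 11.12, 11.08 and 11.01 in large colonies. It fell from 7.81, 7.70 and 7.67 to 5.33, 5.53 and 5.59 in treated small colonies. In untreated small colonies at passage 5 Igf2 already read 5.61, 5.50 and 5.65, so the fall in small colonies holds against treated early cells and not against untreated ones. Mmp3, which encodes the matrix protease stromelysin, rose from 5.64, 5.79 and 5.66 to 8.81, 8.88 and 8.74 in large colonies and fell from 5.91, 5.87 and 5.86 to 4.03, 4.35 and 4.54 in treated small ones. Early levels of Mmp3 lay close together in these groups, and the late ones were far apart. Hgf, the hepatocyte growth factor made by stromal cells, read 5.84, 5.83 and 5.65 in early and 8.75, 8.38 and 8.80 in late large colonies. Hgf read 5.66, 5.6 and 5.63 in early and 4.49, 3.93 and 4.39 in late treated small colonies, the last near the lower quartile of the arrays. The differences were -4.26 ± 0.11 for Igf2, -4.69 ± 0.14 for Mmp3 and -4.23 ± 0.17 for Hgf (adjusted p = 6.6e-14, 4.9e-13 and 1.6e-11 in limma).

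Npy4r, a receptor for pancreatic polypeptide, rose by 2.94 in large and fell by 1.41 in treated small colonies on the log2 scale. Sting1, the adaptor of cytosolic DNA sensing, rose by 1.51 and fell by 2.02. Cpz, a secreted carboxypeptidase that binds Wnt proteins, rose by 1.69 and fell by 1.78. Pde1a, a calmodulin-dependent phosphodiesterase, Gcnt4, a glycosyltransferase of O-glycans, and Olfml3, a secreted olfactomedin-like protein, rose by 2.0, 1.46 and 1.82 and fell by 1.45, 1.95 and 1.41. The rule by which genes of this class were named required that early and late arrays not overlap in either kind of culture. Npy4r, like Mmp3, was far higher in untreated than in treated small colonies at passage 5, at 8.54 ± 0.096 against 5.74 ± 0.030 (SD, n = 3).

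In the reverse direction, Slc7a11 stood out, the cystine importer of the xc- antiporter that supplies cysteine for glutathione. It read 6.27, 6.25 and 6.29 in early and 5.55, 5.23 and 5.19 in late large colonies. In treated small colonies it read 6.56, 6.42 and 6.36 early and 8.98, 9.10 and 9.03 late. The late arrays of the treated small colonies lay above all others. Slc7a11 rose 6.02-fold in treated small colonies and fell 1.93-fold in large ones, with a difference of 3.54 ± 0.12 (adjusted p = 1.1e-12 in limma).

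Car6, a secreted carbonic anhydrase, fell from 6.85, 6.84 and 6.54 to 4.24, 4.29 and 4.42 in large colonies and rose from 5.48, 5.50 and 5.43 to 7.09, 6.64 and 6.85 in treated small ones, a difference of 3.82 ± 0.15. Lama2, the laminin chain of muscle basement membranes, fell from 7.19, 7.0 and 7.16 to 5.87, 5.68 and 5.63 and rose from 6.89, 6.80 and 6.75 to 8.55, 8.53 and 8.58, a difference of 3.13 ± 0.12. For both genes the late arrays lay below the early ones in large colonies and above them in treated small colonies, as the naming rule required. Igfbp3, an IGF-binding protein that is often secreted by ageing fibroblasts, fell from 10.13, 10.12 and 10.08 to 9.18, 9.26 and 9.16 in large colonies. It rose from 6.08, 6.13 and 5.96 to 8.36, 7.99 and 8.32 in treated small ones. Large colonies thus kept the higher Igfbp3 level at both passages while the gap narrowed (difference 3.08 ± 0.12).

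Slit2, a secreted ligand of ROBO receptors, fell by 1.04 in large and rose by 1.02 in treated small colonies, and stayed far higher in large ones (10.87 ± 0.049 against 8.12 ± 0.024 at passage 15; SD, n = 3). The microtubule gene Map2, the protocadherin gene Pcdh9 and the ankyrin gene Ank2 fell by 1.45, 1.22 and 0.89 and rose by 0.93, 0.97 and 0.99. Cdsn, which encodes a desmosome-associated protein of skin, fell by 0.96 and rose by 1.90. Trib3, a pseudokinase induced by amino acid shortage, fell by 1.09 and rose by 1.02.

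**Figure D2:**
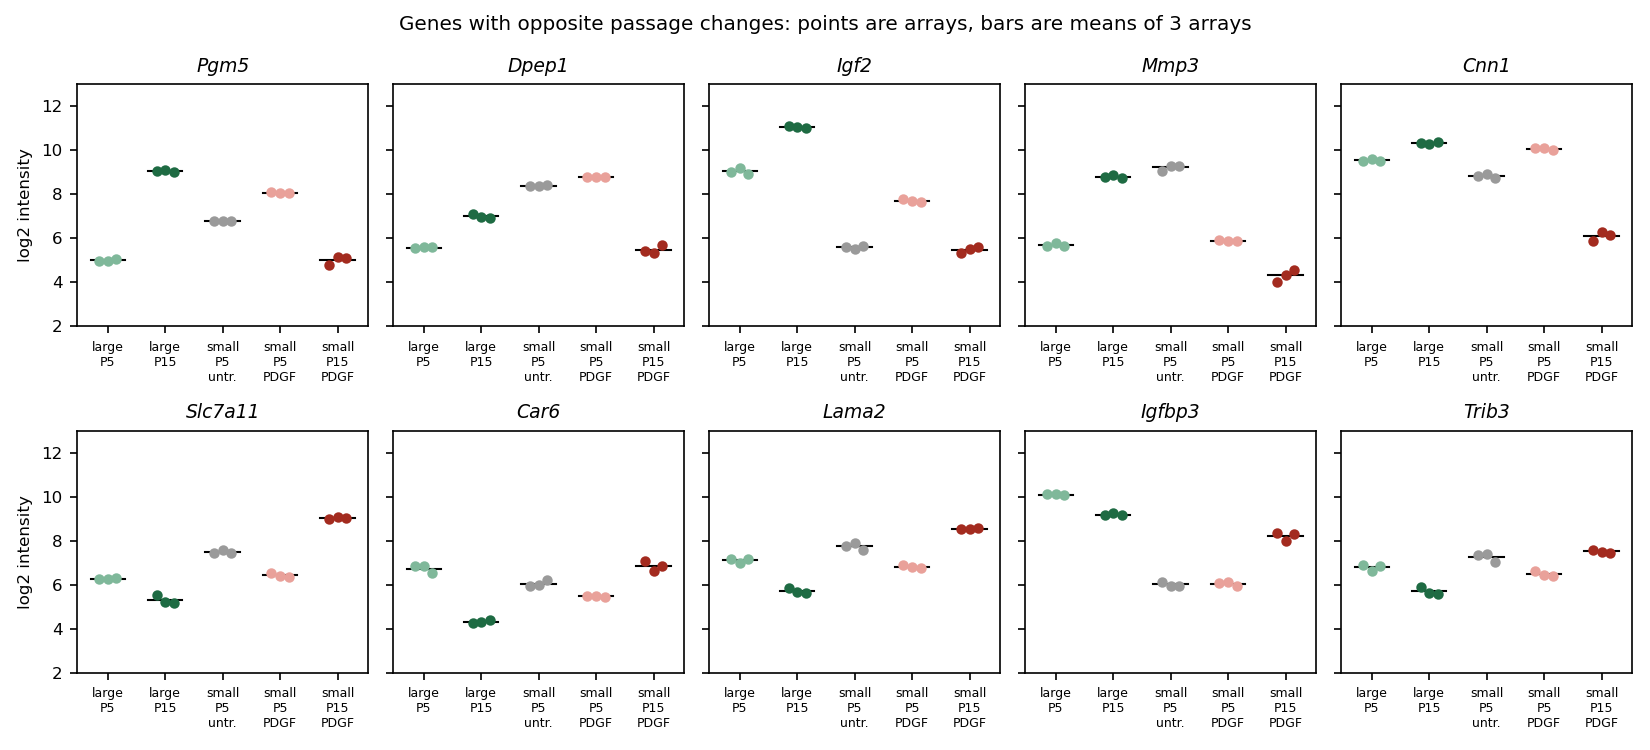
Log2 intensity of 10 genes with opposite passage changes in each array (points) with group means of 3 arrays (bars), for large colonies (green), untreated small colonies at passage 5 (grey) and PDGF-AB-treated small colonies (red). In the upper row the late green points lie above the early ones and the late red points below, and in the lower row the order is reversed. Cnn1 had the smallest rise in large colonies of the upper row (0.77).

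The starting point of the small colonies and the scaling mattered for this class. With arrays centred on their medians, 270 genes rose in small and fell in large colonies. Untreated small colonies at passage 5 were then put in place of the treated ones, so that passage and PDGF-AB changed together in small colonies. From there 599 genes rose in small and fell in large colonies, and 811 did the reverse. The shared genes were 288, or 69.4% of the 415 and 48.1% of the 599, and 434, or 83.1% of the 522 and 53.5% of the 811. Of the 4 genes with 2-fold changes both ways that rose in small colonies (Car6, Lama2, Slit2 and Trib3), 0 were among the 6 found from the untreated start. Of the 31 that fell in small colonies, 26 were among the 49.

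Changes of at least 2-fold in 1 kind of culture and under 0.32 on the log2 scale in the other were found for 388 genes, 249 in treated small colonies (67 up, 0.336% of genes, and 182 down, 0.913%) and 139 in large colonies (73 up, 0.366%, and 66 down, 0.331%). The number depends on the limit set for the other kind of culture, as given in the closing section. A gene under 0.32 on the log2 scale there is not shown to be without change. The median SE of a passage change was 0.0778 on the log2 scale. Of the 388 genes 285 were not called in the other kind of culture, while 31 were called there with the opposite sign and 72 with the same sign.

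Pip, which encodes prolactin-induced protein, a secreted product of exocrine glands, read between 2.49 and 2.89 in the 12 arrays outside the late treated small colonies, no higher than the Y-linked genes, and 10.69, 10.70 and 10.59 in those. Late treated small colonies thus stood apart from all other arrays. Glipr1, a secreted CAP-domain protein and p53-regulated gene, read 6.31, 6.44 and 6.37 in early and 10.57, 10.53 and 10.60 in late treated small colonies. It was high throughout in large colonies, at 11.99, 12.0 and 11.95 early and 11.68, 11.61 and 11.72 late. Treated small colonies thus moved toward the level of the large ones but stayed more than 2-fold below it. In large colonies Glipr1 fell by 0.31 (adjusted p = 0.00209 in limma), so that it also counts among the opposite genes. Fabp5, a fatty-acid-binding protein, moved in the same way, from 5.99 ± 0.079 to 8.44 ± 0.031 in treated small colonies beside 9.62 ± 0.17 and 9.51 ± 0.19 in large ones (SD, n = 3). Efcab12, the BCH-domain gene Prune2 and the protocadherin gene Pcdhb2 rose by 2.83, 2.37 and 2.05 in treated small colonies.

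Tcf21, the transcription factor of epicardium-derived cardiac fibroblasts, fell in treated small colonies. It read 9.44, 9.66 and 9.57 in early and 4.78, 4.92 and 5.09 in late treated small colonies. In large colonies it was already low, at 4.79, 4.65 and 4.68 early and 4.58, 4.53 and 4.83 late. Late treated small colonies thus reached nearly the level of the large ones, and the difference was -4.57 ± 0.13 (adjusted p = 1.3e-13 in limma).

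Other genes fell in late treated small colonies from levels that the large ones kept. Lyz2, the lysozyme of myeloid cells, read 8.90, 8.91 and 8.98 early and 5.37, 5.12 and 5.58 late in treated small colonies, and 8.42 to 8.83 over both passages in large ones. Gstk1, a mitochondrial and peroxisomal glutathione transferase, fell from 8.06, 8.20 and 8.15 to 4.64, 4.74 and 4.69, beside 7.15 to 7.34 in large colonies. In both cases the late treated small arrays lay below every other array. Adam23, a catalytically inactive metalloprotease-like surface protein, Fstl4, a follistatin-like gene, and Ctla2a, a cysteine protease inhibitor, fell by 3.58, 3.48 and 3.07. Their changes in large colonies were -0.16, -0.09 and -0.03. Since Lyz2 also marks macrophages, the leukocyte markers are given beside it. Of these 14, which include Lyz2 itself, 3 were higher and 2 lower in the difference, with Lyz2 among the lower. Their array means were 5.01 to 5.03 in early and 4.83 to 4.88 in late treated small colonies. The fall of Lyz2 is counted in these means, and means without it were not computed. The part of such cells in the Lyz2 level was not tested.

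Among genes that rose mostly in large colonies was Cd34, a sialomucin of progenitor and stromal cells. It read 5.10, 5.01 and 5.02 early and 8.52, 8.57 and 8.37 late, and 4.58 to 4.80 in the 6 treated small arrays. Cd34 rose 10.9-fold in large colonies (difference -3.52 ± 0.11, adjusted p = 5.4e-13 in limma). Sema3c, a secreted semaphorin of heart outflow tract development, rose from 7.43, 7.07 and 7.30 to 10.27, 10.12 and 10.28, while treated small arrays stayed between 4.03 and 4.51. Il1rn, the receptor antagonist of interleukin 1, rose by 2.85 in large colonies, and the collagenase gene Mmp8 and the stromelysin gene Mmp10 by 2.89 and 2.40. Mbnl3, an X-linked splicing regulator, rose by 2.97. Each of these genes had late large arrays above all 6 treated small arrays.

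Among genes that fell mostly in large colonies, Efemp1, a fibulin of elastic matrices, went from 11.43, 11.34 and 11.31 to 7.83, 7.82 and 7.80. Treated small colonies had it near the lower quartile of the arrays throughout, between 4.13 and 4.51, which leaves little room for a fall to be measured. Aldh1a3, a retinaldehyde dehydrogenase, fell from 11.64 ± 0.091 to 9.42 ± 0.096 beside 6.06 ± 0.055 and 5.97 ± 0.18 in treated small colonies (SD, n = 3). Hey2, a Notch target, crossed over: it read 7.19, 7.23 and 7.14 early and 4.40, 4.37 and 4.68 late in large colonies, and 5.28 to 5.75 in the treated small arrays. Limch1, a regulator of nonmuscle myosin, Mlana, a melanosome protein, and the glutathione transferase gene Gstm6 fell by 2.29, 2.40 and 2.67, and treated small levels of Gstm6 lay at 3.08 to 3.47.

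**Figure D3:**
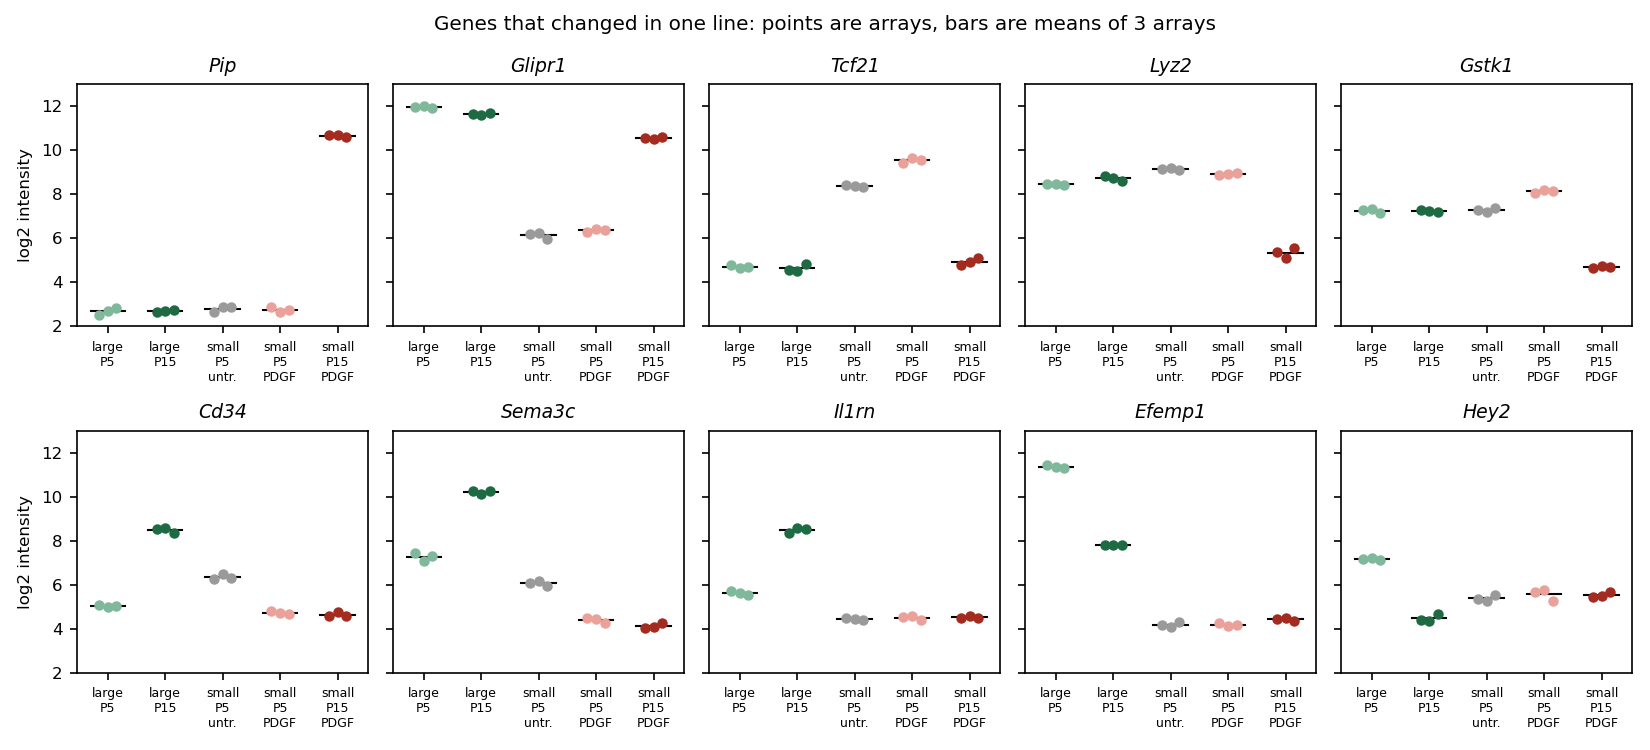
Log2 intensity of 10 genes that changed at least 2-fold with passage in 1 kind of culture and less than 0.32 (log2) in the other, in each array (points) with group means of 3 arrays (bars), coloured as in the plot of opposite genes. Pip, Glipr1, Tcf21, Lyz2 and Gstk1 moved in treated small colonies (red) and Cd34, Sema3c, Il1rn, Efemp1 and Hey2 in large colonies (green). Tcf21 ended near the level of the large colonies, and Glipr1 rose toward it but stayed below.

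In 1469 genes (7.37%) both kinds of culture moved the same way by different amounts, 997 with the larger change in treated small colonies (5%) and 472 with the larger in large ones (2.37%). Igfbp2, an IGF-binding protein of growing tissues, rose by 3.70 in treated small colonies and by 0.39 in large ones (difference 3.31 ± 0.14). Gsta4, the glutathione transferase of lipid aldehydes, rose by 3.83 and 1.03. Cdo1, which degrades cysteine and so draws on the same pool that Slc7a11 fills, fell by 4.17 in large colonies and by 0.54 in treated small ones. Its arrays were 9.10, 9.12 and 9.12 early and 4.97, 4.93 and 4.94 late in large colonies, and it was low in treated small colonies at both passages (4.54 to 5.40). Interleukin 6, encoded by Il6, fell by 4.34 in treated small and by 1.44 in large colonies.

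The genes of known pathways are given next, from 46 lists with 694 genes, of which 655 could be tested. Counts are read against 18.6% of all genes called higher and 15.9% called lower, and list medians against 0.073. Many lists hold mostly brighter genes, such as 18 of 18 oxidative phosphorylation subunits and 18 of 20 collagens. For these the closer background is that of the brighter genes, 19.6% higher and 26.7% lower with a median of -0.029. The lists were chosen with earlier results of these data known, some share members, and they were not tested as sets.

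Cell division genes rose in both kinds of culture, and the difference was in the amount. All 19 measured mitosis genes rose with passage in both. Their array means were 5.44 to 5.58 and 8.19 to 8.29 in early and late large colonies, and 5.38 to 5.53 and 8.58 to 8.72 in early and late treated small ones. In the difference 14 of 19 were higher in small colonies and 1 lower, with a median of 0.53. The kinesin genes Cenpe and Kif23, which act at kinetochores and at the midbody, had differences of 1.00 ± 0.087 and 0.88 ± 0.099. The proliferation marker Mki67 rose from 5.37, 5.43 and 5.43 to 8.13, 8.05 and 8.36 in large colonies and from 5.68, 5.66 and 5.47 to 9.04, 8.77 and 9.09 in treated small ones, a difference of 0.59 ± 0.13 (adjusted p = 0.00172 in limma). Of 20 DNA replication genes, all rose in both, and 4 were higher and 1 lower in the difference, Rrm2 (ribonucleotide reductase) by 0.64.

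That direction depends on the starting point, though the untreated start mixes passage with PDGF-AB. Untreated small colonies at passage 5 had mitosis array means of 6.60 to 6.62, above the treated ones. From there 0 of 19 mitosis genes were higher and 14 lower, with a median of -0.68, the Mki67 difference was -0.52, and 1 of 20 replication genes was higher and 17 lower. The same held for interferon genes: 5 of 15 were higher and 1 lower (median 0.09), but from the untreated start 0 were higher and 12 lower (median -1.09). Ifit3, an interferon-induced antiviral gene, read 8.27, 8.00 and 8.09 early and 6.21, 6.03 and 6.12 late in large colonies, and 8.26, 8.32 and 8.36 early and 7.94, 7.95 and 7.89 late in treated small ones. In untreated small colonies it stood at 10.03 to 10.07.

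Immediate early genes, which growth factor receptors switch on through ERK and SRF, diverged. Of 17, 10 were lower and 2 higher in the difference (median -0.96), and 8 changed in opposite directions, 7 of them down in treated small and up in large colonies. Fos, a subunit of the transcription factor AP-1, read 8.99, 8.96 and 8.87 early and 6.49, 6.18 and 6.25 late in treated small colonies. In large colonies Fos lay between 7.34 and 7.45 in all 6 arrays, and its change there did not pass (-0.01, adjusted p = 0.962 in limma). Zfp36, which marks cytokine mRNAs for decay, fell by 1.78 in treated small and rose by 0.57 in large colonies. Egr2 and Egr1, zinc finger factors of the growth factor response, fell by 1.30 and 0.68 and rose by 0.95 and 0.46.

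ERK feedback genes moved likewise, with 9 of 12 lower and 2 higher (median -0.73). Phlda1, an ERK-responsive gene, rose from 8.98, 9.20 and 9.17 to 10.46, 10.43 and 10.47 in large colonies and fell from 9.76, 9.96 and 9.96 to 8.86, 8.85 and 8.40 in treated small ones. Early and late arrays stood apart in both, and the difference was -2.52 ± 0.15 (adjusted p = 1.9e-09 in limma). The Sprouty gene Spry4, an inhibitor of receptor tyrosine kinase signalling, fell more in treated small colonies (-1.46 against -0.38), and the ERK phosphatase gene Dusp6 fell by 0.23 and rose by 0.83.

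The receptor that gives the cells their sort marker differed too. Pdgfra read 6.62, 6.45 and 6.67 in early and 8.76, 9.02 and 8.76 in late large colonies, and 6.23, 6.39 and 6.20 in early and 6.63, 6.61 and 6.66 in late treated small ones. It rose in both, 4.80-fold in large and 1.28-fold in treated small colonies (difference -1.91 ± 0.12, adjusted p = 2.7e-09 in limma). Pdgfrb, by contrast, was bright throughout, with group means from 11.07 to 11.83 and a difference of -0.25 ± 0.081 (adjusted p = 0.027), a call lost without replicate 2 of the early or late large colonies (-0.23 and -0.22), replicate 1 of the early treated small colonies (-0.22) or replicate 2 of the late ones (-0.21). Pdgfd, which encodes a ligand of PDGFRβ, fell by 2.07 in large colonies, and in treated small ones it read 5.13 to 5.46 over both passages.

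Of 10 genes of the IGF axis, 5 were lower and 3 higher. Beside Igf2, Igfbp2 and Igfbp3, Igfbp5, a binding protein that attaches to matrix, rose from 7.34, 7.25 and 7.23 to 8.52, 8.51 and 8.52 in large colonies and fell from 6.63, 6.70 and 6.40 to 4.99, 4.98 and 4.93 in treated small ones. Ligand and binding proteins thus did not move as a block: Igf2 and Igfbp5 were lower and Igfbp2 and Igfbp3 higher in the difference. Among FGF genes, Fgf10, a ligand of epithelial growth, rose by 1.47 in large and fell by 0.72 in treated small colonies. From the untreated start its fall in small colonies was absent, with a change of 0.05.

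Stress response genes leaned higher in the difference. The unfolded protein and integrated stress response list had 9 of 15 members higher and 4 lower, with a median of 0.73. The median passage change was 0.03 in treated small colonies (5 up, 5 down) and -0.36 in large ones (3 up, 8 down). As a list it thus fell in large colonies more than it rose in treated small ones, while 4 members rose in treated small and fell in large colonies. Chac1, which degrades glutathione, read 9.37, 9.49 and 9.45 in early and 7.79, 7.81 and 7.66 in late large colonies, and 9.24 to 9.43 in the 6 treated small arrays. Asns, asparagine synthetase, fell from 11.26, 11.31 and 11.31 to 10.97, 10.90 and 10.92 in large colonies and rose from 10.86, 10.87 and 10.87 to 11.63, 11.72 and 11.69 in treated small ones. The differences were 1.78 ± 0.087 for Chac1, 1.17 ± 0.074 for Asns and 2.11 ± 0.15 for Trib3. Ddit4, an mTORC1 inhibitor of the same list, fell by 1.47 in treated small colonies and gave the lowest difference of the list (-1.58). The chaperone genes Hspa5 and Hsp90b1, picked after their values were seen, had differences of -0.05 and -0.24. They do not stand for all protein-folding genes of the list. Of 14 NRF2 and glutathione genes 7 were higher and 2 lower (median 0.23), with median passage changes of 0.02 in treated small and -0.25 in large colonies. Cdo1, Slc7a11 and Gsta4 had the largest differences. Of these Cdo1 did not rise: it fell in both kinds of culture, more in large colonies, and was low in treated small ones at both passages.

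Amino acid response elements (CARE) are the sites through which ATF4 and its partners are known to act on such genes. The letters TGATGNAA were searched on both strands in the 250 bases before each gene's start, in promoters from RefSeq (GRCm38.p6). They occurred in 1056 of 27025 genes (3.91%), in 3 of 15 genes of the stress list (Chac1, Asns and Herpud1) and in 2 of 19 named opposite genes with a promoter (Slc7a11 and Ank2). Of immediate early genes 1 of 12 held them, and of contractile genes 0 of 13. Shown are 3 promoters of genes with large differences, with the match in capitals. Slc7a11 holds 2 matches, on opposite strands.
Slc7a11, chr3:50443614-50443863, minus strand: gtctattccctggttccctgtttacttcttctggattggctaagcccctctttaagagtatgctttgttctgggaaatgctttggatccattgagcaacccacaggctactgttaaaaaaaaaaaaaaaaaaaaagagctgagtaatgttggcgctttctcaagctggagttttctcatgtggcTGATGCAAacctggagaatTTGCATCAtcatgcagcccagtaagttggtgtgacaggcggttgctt
Chac1, chr2:119350992-119351241, plus strand: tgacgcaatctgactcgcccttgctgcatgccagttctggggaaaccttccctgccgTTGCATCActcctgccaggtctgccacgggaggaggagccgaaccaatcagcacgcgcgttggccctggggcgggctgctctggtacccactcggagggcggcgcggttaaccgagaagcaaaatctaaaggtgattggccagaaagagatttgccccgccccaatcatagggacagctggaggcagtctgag
Asns, chr6:7693210-7693459, minus strand: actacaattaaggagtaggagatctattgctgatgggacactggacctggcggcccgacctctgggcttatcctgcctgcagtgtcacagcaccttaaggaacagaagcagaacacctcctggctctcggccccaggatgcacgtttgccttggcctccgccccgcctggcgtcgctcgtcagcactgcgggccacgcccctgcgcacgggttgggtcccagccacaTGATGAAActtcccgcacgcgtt
A match is a run of letters and not evidence of binding.

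Contractile genes were mostly lower in the difference. Of 16, 12 were lower and 1 higher (median -0.48). Cnn1, the smooth muscle calponin, read 10.10, 10.12 and 10.01 in early and 5.89, 6.30 and 6.15 in late treated small colonies, and 9.54, 9.60 and 9.54 early and 10.33, 10.27 and 10.38 late in large ones. The late treated small arrays lay below all others, and the difference was -4.73 ± 0.12 (adjusted p = 5.3e-14 in limma). Mylk, the myosin light chain kinase gene, fell by 1.88 and rose by 0.75 in large colonies. Myl9, a regulatory myosin light chain, fell from 12.23, 12.22 and 12.19 to 10.60, 10.33 and 10.48 in treated small colonies and stayed between 11.94 and 12.12 in large ones.

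For contractile genes, too, the start mattered. In untreated small colonies at passage 5 Myl9 read 10.71, 10.57 and 10.70, close to the late treated level. From that start 4 of 16 contractile genes were higher and 5 lower, with a median of 0.02. Actg2, smooth muscle gamma actin, turned from -1.58 to 0.62. Cnn1 stood at 8.82, 8.91 and 8.76 in the untreated early cells, so its late level of 5.89 to 6.30 was low against both starts.

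The CArG box is the DNA site of SRF, a factor of contractile and immediate early genes. It was searched on both strands in the same 250 bases. It occurred in 439 of 27025 genes (1.62%), in 3 of 13 contractile genes with a promoter (Myl9, Cnn2 and Vcl) and in 2 of 12 immediate early genes (Zfp36 and Egr2). Of the named opposite genes 2 of 19 held it (Igf2 and Lama2, which moved in opposite directions), and of the stress list 0 of 15. Cnn1, Mylk and Actg2, whose differences were larger than that of Vcl, were not among the genes found with a box. Of the 3 contractile genes with a box, Myl9 and the focal adhesion gene Vcl (difference -0.64 ± 0.076) were called with the larger differences. Their promoters are shown with the box in capitals.
Myl9, chr2:156775214-156775463, plus strand: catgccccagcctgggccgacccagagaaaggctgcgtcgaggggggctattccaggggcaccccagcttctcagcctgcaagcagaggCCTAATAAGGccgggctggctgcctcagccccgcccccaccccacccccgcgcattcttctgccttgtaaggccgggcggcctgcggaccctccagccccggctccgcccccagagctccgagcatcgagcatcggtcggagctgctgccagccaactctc
Vcl, chr14:20929148-20929397, plus strand: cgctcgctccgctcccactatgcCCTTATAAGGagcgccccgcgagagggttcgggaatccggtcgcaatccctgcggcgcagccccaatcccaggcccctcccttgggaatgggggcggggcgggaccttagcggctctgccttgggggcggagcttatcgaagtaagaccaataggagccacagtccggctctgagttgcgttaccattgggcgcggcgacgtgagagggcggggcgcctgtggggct
In both the box is the only match in this window, and none of the 5 promoters shown held both motifs.

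Of 12 basement membrane genes 9 were lower and 2 higher (median -0.62), and 7 changed in opposite directions. Lama4, a laminin chain of vessel and muscle basement membranes, rose from 4.84, 4.66 and 4.91 to 6.92, 7.0 and 6.76 in large colonies and fell from 6.26, 6.26 and 6.18 to 5.29, 4.96 and 5.09 in treated small ones, against the course of Lama2. The linker gene Nid2 rose by 0.99 and fell by 0.91. Lama5 fell by 1.43 in treated small colonies. Laminin chains thus went opposite ways within each kind of culture, Lama2 up with Lama4 down in treated small colonies and the reverse in large ones.

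Of 20 collagens 10 were lower and 6 higher (median -0.16). The chains of type I collagen, Col1a1 and Col1a2, rose by 1.43 and 1.32 in large and by 0.55 and 0.36 in treated small colonies. Col14a1, a fibril-associated collagen, fell from 10.17, 9.88 and 9.99 to 8.50, 8.50 and 8.44 in large colonies and read 5.56 to 5.72 in the treated small arrays. Of 19 proteoglycan and matricellular genes 11 were lower and 3 higher. The keratan sulfate proteoglycan gene Lum rose by 0.53 in large and fell by 1.70 in treated small colonies, where it had read 7.14 to 7.40 at passage 5, beside 8.89 to 8.99 in untreated small colonies. Tnc, tenascin C of remodelling tissue, fell by 2.52 in treated small and 0.37 in large colonies. Of 19 proteases and inhibitors 11 were lower and 2 higher (median -0.70). Beside Mmp3, the plasminogen activator gene Plat rose by 0.56 and fell by 0.83, while the aggrecanase-type gene Adamts1 fell by 1.70 in large colonies, with a change of -0.07 in treated small ones that was not called.

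Of 10 complement and acute phase genes 8 were lower and 0 higher (median -1.54), and 5 fell in treated small colonies and rose in large ones. Cp, the copper-carrying ferroxidase ceruloplasmin, fell from 8.64, 8.66 and 8.65 to 5.97, 5.94 and 5.94 in treated small colonies and rose from 6.80, 6.80 and 6.70 to 7.22, 7.08 and 7.07 in large ones (difference -3.06 ± 0.078). Lcn2, which binds bacterial siderophores, rose by 1.75 in large and fell by 0.62 in treated small colonies. C1s1, a protease of the first complement component, rose by 0.46 and fell by 1.60.

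Of 19 chemokines and cytokines 9 were lower and 0 higher (median -0.29). Ccl2, the main monocyte attractant, read 9.42, 9.66 and 9.32 early and 10.55, 10.68 and 10.38 late in large colonies, and 9.31, 9.29 and 9.32 early and 7.61, 7.21 and 7.42 late in treated small ones. All 12 arrays thus fell into 3 levels, with the early ones of both kinds of culture together. The related chemokine gene Ccl7 rose by 0.63 and fell by 2.30, and the alarmin gene Il33 rose by 1.73 and fell by 0.52. Of 12 prostaglandin genes 4 were lower and 1 higher. Ptger4, a receptor of prostaglandin E2, rose from 7.47, 7.52 and 7.43 to 8.65, 8.45 and 8.60 in large colonies and fell from 8.41, 8.44 and 8.34 to 5.36, 5.48 and 5.49 in treated small ones, and Ptges, which makes prostaglandin E2, rose by 0.61 and fell by 1.81.

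Transcription factors of mesenchyme were lower or not called, 10 of 18 and 8 of 18, with none higher. Foxd1, a factor of kidney stromal progenitors, rose from 5.83, 5.87 and 5.96 to 8.15, 7.81 and 8.17 in large colonies and fell from 6.97, 6.90 and 6.81 to 6.51, 6.55 and 6.5 in treated small ones. Twist2, a repressor of mesenchymal differentiation, rose by 1.14 and fell by 0.35. From the untreated start 5 of the 18 were higher and 10 lower. Of 20 cardiac and mesoderm factors 7 were lower and 3 higher, with differences of 0.84 for Gata6, a zinc finger factor of heart and gut, and of -0.78 and -0.85 for Osr1 and Foxf1, factors of lateral mesoderm. Of 37 Hox genes, which record position along the body axis, 5 were higher and 5 lower. Hoxa3 changed in opposite directions, with a difference of -1.01.

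Cholesterol and glycolysis genes were mostly lower in the difference. Of 14 cholesterol synthesis genes 9 were lower and 1 higher (median -0.44), and Cyp51, the lanosterol demethylase gene, rose from 7.47, 7.42 and 7.36 to 8.35, 8.34 and 8.26 in large colonies and fell from 7.96, 7.91 and 7.86 to 7.02, 7.23 and 7.14 in treated small ones. Of 16 glycolysis and hypoxia genes 10 were lower and 1 higher (median -0.28). The glucose transporter gene Slc2a1 fell by 0.80 in treated small colonies, and its change of 0.14 in large ones did not pass. Of 18 oxidative phosphorylation subunits 6 were lower and 2 higher, with all differences between -0.35 and 0.43.

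Signalling lists held genes on both sides. Among 12 class 3 semaphorins and receptors 7 were higher and 3 lower. Sema3e, a ligand of plexin D1, read 5.47, 5.38 and 5.49 early and 8.00, 7.87 and 8.02 late in treated small colonies and fell from 6.40, 6.21 and 6.17 to 5.50, 5.65 and 5.67 in large ones (difference 3.16 ± 0.10), opposite in sign to Sema3c (-3.23 ± 0.14). Of 11 retinoic acid genes 3 were higher and 3 lower: Dhrs3, a retinaldehyde reductase, rose by 1.90 in large and fell by 1.06 in treated small colonies, and Cyp26b1, which degrades retinoic acid, fell by 2.14 and 0.67. Of 20 Wnt genes 8 were lower and 6 higher. Sfrp1, a secreted Wnt antagonist, rose by 0.63 and fell by 1.91, and the agonist gene Rspo2 fell by 2.13 in large colonies, a difference of 2.03 that turned to -0.33 from the untreated start. Of 13 TGF-beta genes 9 were lower and 2 higher, among them Ltbp2, which encodes a latent TGF-beta-binding protein (-2.16 ± 0.12), and the betaglycan gene Tgfbr3 (-1.65 ± 0.080).

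**Figure D4:**
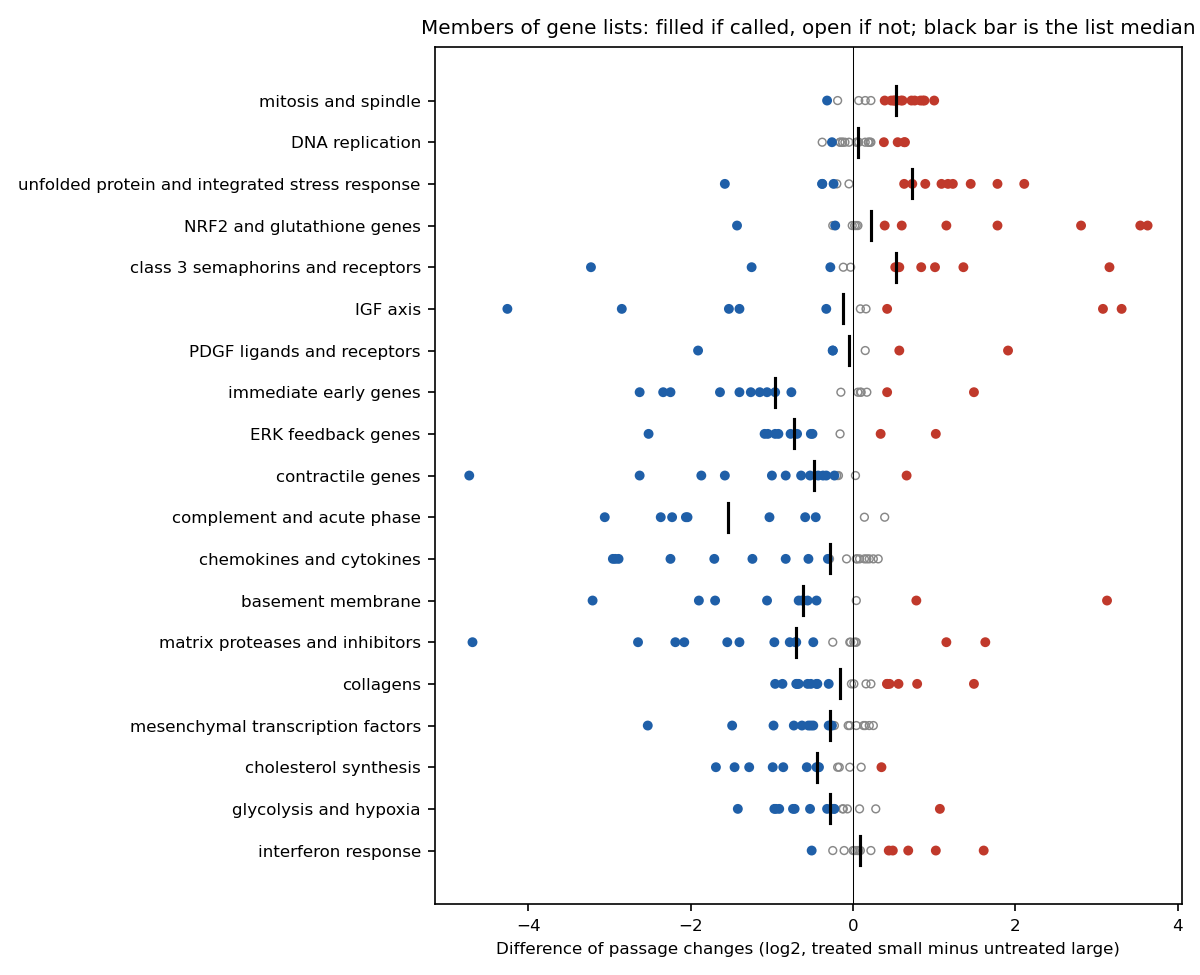
Difference of passage changes (log2, treated small minus untreated large colonies) for each measured member of 19 gene lists, filled where called and open where not, with the list median as a black bar. Complement (median -1.54), immediate early (-0.96) and ERK feedback genes (-0.73) lie to the left of 0, and stress response (0.73) and mitosis genes (0.53) to the right.

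Medians differed between chromosomes. Over 9953 of the brighter genes, with chromosomes from the RefSeq gene table (GRCm38.p6), chromosome 16 had a median difference 0.228 above that of all of these, and 42.3% of its 317 genes were called higher and 13.2% lower, beside 19.6% and 26.7% in all. Chromosome 1 lay 0.174 above. Chromosomes 14, 15 and 10 lay at -0.161, -0.146 and -0.134, with 40.1%, 40.7% and 39.6% of genes called lower. On chromosome 16 the shift was 0.166 in treated small and -0.074 in large colonies, and on chromosome 10 it was 0.018 and 0.138. These are descriptions of medians, and no cause was tested.

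**Figure D5:**
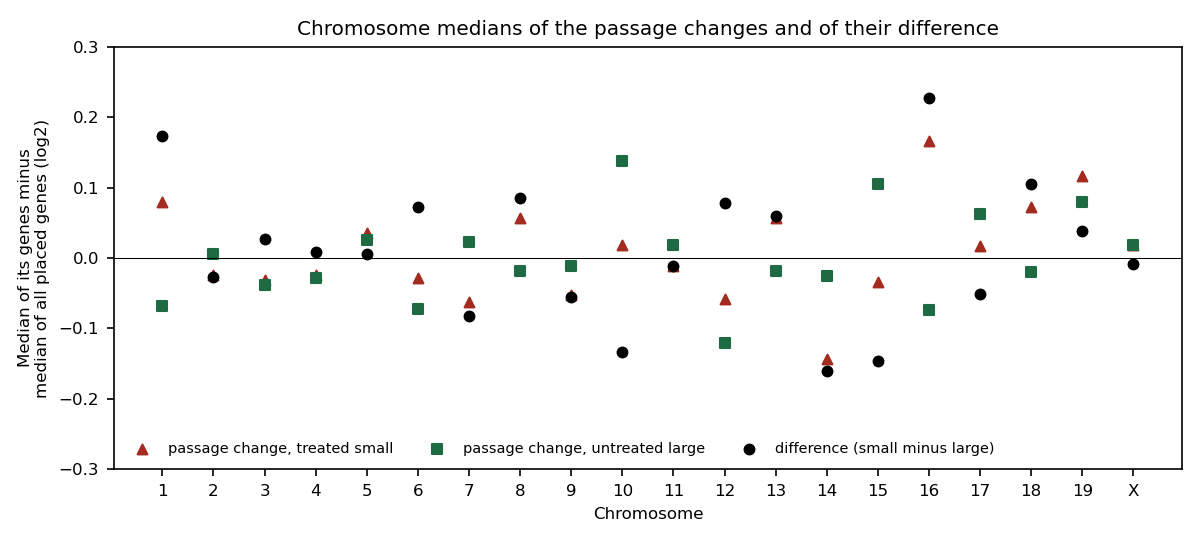
Median passage change of the genes of each chromosome minus the median over all 9953 placed genes (log2), for treated small colonies (red triangles), large colonies (green squares) and the difference (black circles). Chromosomes 16 (0.228) and 1 (0.174) lie highest in the difference and chromosomes 14 (-0.161), 15 (-0.146) and 10 (-0.134) lowest.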

How the data were processed

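Total RNA of 15 samples was labelled for Affymetrix whole-transcript arrays, 1 array per sample, per the labels' protocols. The deposited values are log2 intensities, and RMA and limma are listed, without version or role, in the submitters' processing notes. The array type, background settings and annotation are not given in the sources used here. The treatment protocol in the labels names an inhibitor, AG1296, but no sample was labelled with it.

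Of 28853 probe sets 21789 named 1 gene. Their symbols were looked up in the RefSeq gene table (GRCm38.p6), which held 21698 of these and not the other 91. Where a gene had more than 1 (999 genes), the brightest on average stood for it, giving 19938 genes, from 69.1% of the array. Ly6a and Cdkn1a were not analysed here. A model of 5 group means was fitted with limma 3.58.1 in R 4.3.3 (10 residual and 5.8 prior degrees of freedom, median SE of the difference 0.11), with 2-sided moderated tests. The number of arrays limits the precision.

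Opposite genes were called in the difference and in both passage changes, with opposite signs. Line-specific genes were called in the difference, changed at least 2-fold and called in 1 kind of culture and under 0.32 on the log2 scale in the other. Same-direction genes were called in all 3 with equal signs. The classes may overlap.

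Members and lists were chosen with earlier results of these data known. Named genes had a mean level at or above the median in at least 1 of the 4 groups and non-overlapping early and late arrays in each kind of culture that put them in their class, and were the 8 largest differences each way, 10 opposite genes each way by the smaller of both changes, 6 in each line-specific class, up to 4 of each list by adjusted p, and fixed genes. Predicted genes and small RNAs were left out. Other list members named (Hspa5, Hsp90b1, Ptprc, Herpud1, Vcl and Cnn2) and the printed promoters of Chac1 and Asns were chosen after their values were seen.

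Alternatives were median centring, cyclic loess, leaving out dim genes, the mean over probe sets, all probe sets as separate features, the 12 arrays alone, trend and robust moderation, array weights, replicate blocks, a minimum of 1.2-fold, limits of 1.1-fold and 1.5-fold in the other kind of culture, untreated small colonies as the start, and leaving out each array. Same-numbered arrays of large colonies correlated at 0.208, 0.0984 and 0.202 after subtraction of group means, and those of treated small colonies at -0.00503, -0.0539 and -0.0471, so the numbers did not meet the rule for pairing. Tested on simulated data with 50 genes changed at each size among 19938, the fit called 4% of differences of 0.25, 46% of 0.5 and 100% of 1 and 2, with 6 false calls. The data held far more changed genes, so these shares describe the simulation alone.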

Additional observations from a re-analysis of the deposited data

Results flagged for a closer look

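The passage changes of the 2 kinds of culture differed by a test of the difference itself for 6865 genes. Among them were 415 genes that rose in treated small and fell in large colonies and 522 that did the reverse. By at least 2-fold, 67 rose and 182 fell in treated small colonies with a change under 0.32 (log2) in large ones, and 73 rose and 66 fell in large colonies with a change under 0.32 in treated small ones. Of these 388 genes 31 are also among the opposite ones. In each case colony size and PDGF-AB cannot be told apart.

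Of the 20 genes named for the largest opposite changes (by the smaller of their changes), those that fell in treated small colonies had differences of -7.11 for Pgm5, -4.70 for Dpep1, -4.69 for Mmp3, -4.35 for Npy4r and -4.26 for Igf2. Sting1, Cpz, Pde1a, Gcnt4 and Olfml3 had -3.53, -3.47, -3.45, -3.41 and -3.23. Those that rose there had differences of 3.82 for Car6, 3.54 for Slc7a11, 3.13 for Lama2, 3.08 for Igfbp3 and 2.86 for Cdsn. Map2, Pcdh9, Trib3, Slit2 and Ank2 had 2.38, 2.19, 2.11, 2.06 and 1.88.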

How the results depend on the processing

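Of 211 named genes 160 kept the direction and call of their difference in every alternative run, and 51 did not in at least 1. The direction was turned for 20 genes, each time with untreated small colonies at passage 5 as the start. From that start passage and PDGF-AB change together in the small colonies. There the difference became 0.62 for Actg2, 0.11 for Adm, -0.64 for Bmp4, 0.01 for Ccnd1, -0.15 for Cenpe, -0.38 for Chaf1b, 0.22 for Hes1, -0.13 for Ifit3, -0.46 for Kif23 and 0.68 for Mcam. It became -0.37 for Mcm2, -0.52 for Mki67, -0.92 for Nusap1, -0.27 for Rfc4, -0.33 for Rspo2, 0.14 for Tnnt2, -0.16 for Tpx2, 0.41 for Tubb3, -1.70 for Usp18 and -0.79 for Xaf1. From that start 811 genes fell in small and rose in large colonies, 146 by at least 1.5-fold both ways and 49 by at least 2-fold.

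With arrays centred on their medians 2387 genes were called higher, 270 rose in small and fell in large colonies, and 2 of these reached 2-fold both ways. Without the dimmer genes, so with fewer tested, 2233 were called higher. Then 37 genes rose mostly in small colonies, 35 rose mostly in large colonies and 38 fell mostly in large colonies. A test against a minimum of 1.2-fold called 2318 genes, 877 higher and 1441 lower. With a limit of 1.1-fold in the other kind of culture, the genes that changed mostly in small colonies were 32 up and 79 down and those mostly in large ones 36 up and 34 down. With a limit of 1.5-fold they were 118 and 312, and 125 and 101.

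Leaving out single arrays gave 5756 to 7229 calls of the difference, 324 to 525 genes that rose in small and fell in large colonies and 455 to 530 with the reverse. The lowest count of calls came without replicate 3 of the early large colonies. With a replicate block by number 6946 genes were called, and 6776 with a block by number within each kind of culture. The pairing changed no count of calls by over 1.5 times, while Pdgfrb and Pecam1 lost their calls under the block within each kind of culture. In large colonies 6 of 6 arrays correlated best with their own number, a hint from the data and not from the design. Levels near the lower quartile of the arrays limit what can be measured: a fall from there, as for Efemp1 in small colonies, would not be seen. The causes of these dependences were not tested.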

Other observations

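Several gene lists that the account above leaves out held named genes with large differences. Among 16 integrins 7 were lower and 5 higher. Itga8, which binds nephronectin, fell by 4.16 in treated small and by 1.60 in large colonies, a difference of -2.56 ± 0.10, while Itga2, a collagen receptor chain, fell by 1.18 in large colonies and did not pass in treated small ones. Among 14 imprinted growth genes 5 were higher and 4 lower. Peg3, a paternally expressed zinc finger gene, read 7.64, 7.48 and 7.33 early and 4.70, 5.19 and 5.05 late in treated small colonies and rose by 0.41 in large ones. Dlk1, a surface inhibitor of fat cell formation, rose by 2.81 in treated small and by 1.40 in large colonies. Among 14 p53 targets 4 were higher and 5 lower, and Btg2, an antiproliferative gene, fell by 2.72 in treated small and by 0.22 in large colonies. The cell cycle inhibitor gene Cdkn2a had a difference of 0.28 that did not pass (adjusted p = 0.0593 in limma), and passed in some alternatives.

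Among 17 regulators of fat, bone and cartilage 6 were lower and 2 higher. Alpl, the alkaline phosphatase of bone-forming cells, rose by 1.98 in large colonies (-0.06 in treated small ones, not called), and Pparg, the fat cell receptor, fell by 1.59 in treated small colonies and stood at 0.00 in large ones. Of 12 Notch genes 4 were higher and 3 lower, with the ligand gene Jag1 falling by 1.68 in large and by 0.56 in treated small colonies. Of 10 pericyte markers 3 were higher and 4 lower. Rgs5, a regulator of G protein signalling in pericytes, fell by 1.69 in large colonies, and in treated small colonies it read 4.60 to 4.79 over both passages. Of 15 BMP genes 5 were higher and 4 lower, and of 13 elastic fibre genes 4 were higher and 6 lower.

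Among 12 TNF superfamily genes 4 were higher and 5 lower, and among 13 lysosomal genes 3 and 2. Of 9 CDK inhibitors and D cyclins 1 was higher and 5 lower. Among 15 stromal surface genes 2 were higher and 9 lower (median -0.51), Cd34 with the most negative difference (-3.52). From the untreated start 4 of these 15 were higher and 6 lower, with a median of 0.04. Among 12 FGF and HGF genes 4 were higher and 4 lower. Of the markers of other cell types, 3 of 12 cardiomyocyte, 2 of 8 glial and neural and 5 of 12 epithelial and mesothelial genes were higher, and 1 in each was lower. Few of them lay above the median level (1, 2 and 2), and among genes below it 17.5% were called higher and 5.09% lower. With arrays centred on their medians the higher counts became 1, 1 and 5. After cyclic loess they were 0, 1 and 4, and 1 in each stayed lower. The epithelial and mesothelial gene Upk1b fell by 1.94 in large colonies and read 5.14 to 5.55 in the treated small arrays.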
